A study of Homo sapiens with 12 samples.

Results

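The aryl hydrocarbon receptor (AHR) and 6 genes around it were followed in human liver and colon cancer cells given an extract of the red seaweed Hypnea musciformis (HME). The genes were taken by name and are AHR, its partner ARNT, its repressor AHRR, and the target genes CYP1A1, CYP1A2, CYP1B1 and TIPARP, 7 of the 57736 genes in the count tables. Cells of the liver carcinoma line HepG2 and of the colon cancer line Ls174 were left without treatment or were given HME for 24 h, at 0.7 mg/ml by the sample labels, with 3 libraries in each of the 4 groups and 12 in all. The study's methods state a slightly higher concentration of HME than the labels. Both are established lines, and the study's methods describe the libraries of a group as biological replicates.

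AHR is a transcription factor that waits in the cytosol, held by a pair of heat shock protein HSP90 molecules and by further chaperones. When a flat aromatic ligand binds, such as dioxin, a polycyclic hydrocarbon, a plant flavonoid or a tryptophan metabolite, AHR enters the nucleus, pairs with ARNT and binds DNA at xenobiotic response elements that hold the core letters GCGTG. In liver and gut it is best known for switching on the cytochromes P450 of family 1, which oxidise such ligands, together with AHRR and TIPARP, which restrain the receptor in turn.

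The sequences upstream of the target genes are shown first, because the comparisons below turn on CYP1A1 and TIPARP. The letters TNGCGTG, the core with the bases that most often precede it in a response element, were searched on both strands in the 1500 bases before the start of the Ensembl canonical transcript on GRCh37. CYP1A1 held 5 matches, and 4 of 19867 protein-coding genes (0.0201%) held that many. The 5 stretches are given 5′ to 3′ on the strand of the gene, with the matched letters in capitals. A match on the opposite strand therefore reads CACGCNA.
CYP1A1, 503 bases upstream, chr15:75018357-75018381, minus strand: agcgcttctCACGCGAgccgggact
CYP1A1, 898 bases upstream, chr15:75018752-75018776, minus strand: tcgccggcgCACGCAAgctagccgg
CYP1A1, 986 bases upstream, chr15:75018840-75018864, minus strand: ggtccttctCACGCAAcgcctgggc
CYP1A1, 1061 bases upstream, chr15:75018915-75018939, minus strand: cctccccccTCGCGTGactgcgagc
CYP1A1, 1385 bases upstream, chr15:75019239-75019263, minus strand: tgagctaggCACGCAAatacaactt
Among the other genes of the pathway, ARNT held 2 matches and AHRR 1, and AHR, CYP1A2 and TIPARP held 0. Matches upstream of CYP1B1 were not listed. At least 1 match was present upstream of 26.5% of the protein-coding genes. The AHRR match lay 32 bases before the start of the gene.
AHRR, 32 bases upstream, chr5:321788-321812, plus strand: gcgggcggcTCGCGTGccggggtgg

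**Figure D1:**
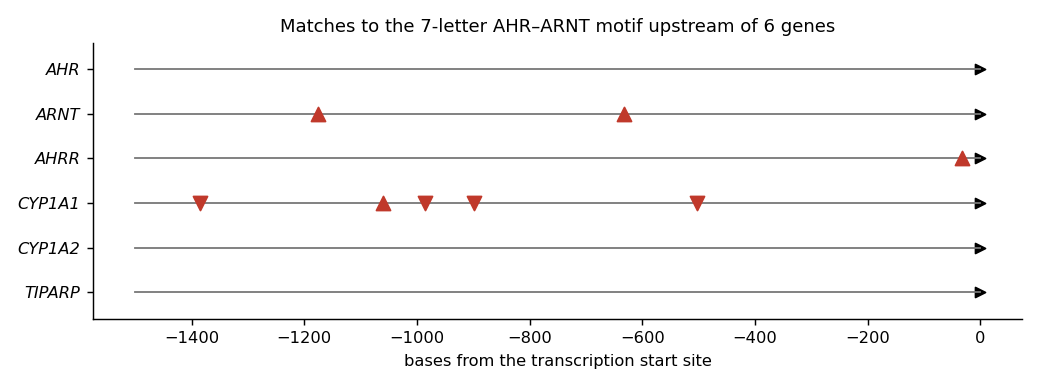
Positions of the letters TNGCGTG in the 1500 bases before the start site (black arrowhead) of 6 genes. The x axis is in bases, triangles that point up are matches on the strand of the gene and triangles that point down are matches on the opposite strand. CYP1A1 carries 5 matches, spread from 503 to 1385 bases upstream.

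The shorter core GCGTG was far more common and was present upstream of 80.3% of genes. CYP1A1 held 10 copies in its 1500 bases, a number reached by 0.594% of genes, and TIPARP held 6, reached by 7.39%. ARNT held 5, AHRR 4, CYP1A2 1 and AHR 0, and the median gene held 2. Each longer match contains a copy of the core, so these counts overlap. In the RefSeq promoter windows of GRCh38.p14, which run from 250 bases before the start to 50 after it, 36.5% of 35116 windows held GCGTG. The CYP1A1 window held 1 copy and the first of the TIPARP windows held 2, shown here in capitals, again as GCGTG or as CACGC on the opposite strand.
CYP1A1 promoter, chr15:74725479-74725778, minus strand: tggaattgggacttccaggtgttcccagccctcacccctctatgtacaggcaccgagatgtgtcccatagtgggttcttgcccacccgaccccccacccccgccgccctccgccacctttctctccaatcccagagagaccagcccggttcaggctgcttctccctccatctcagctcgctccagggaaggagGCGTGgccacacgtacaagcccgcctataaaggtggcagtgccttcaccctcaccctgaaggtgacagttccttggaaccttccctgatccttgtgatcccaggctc
TIPARP promoter, chr3:156674340-156674639, plus strand: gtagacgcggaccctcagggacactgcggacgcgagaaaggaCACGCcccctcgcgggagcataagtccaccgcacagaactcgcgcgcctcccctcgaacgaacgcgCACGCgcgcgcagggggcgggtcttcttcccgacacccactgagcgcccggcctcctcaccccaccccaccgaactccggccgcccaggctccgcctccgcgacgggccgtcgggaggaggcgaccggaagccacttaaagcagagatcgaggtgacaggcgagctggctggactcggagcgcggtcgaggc
The other TIPARP starts and the windows of ARNT and CYP1A2 held 0 copies, the AHR window held 1, and the AHRR windows held 1 and 2. These are matches of letters, and binding of AHR to them was not measured.

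The libraries were 3′ end libraries, in which each RNA is counted once near its end and without regard to its length. The deposited regions of each gene were summed, and with the 12 libraries pooled, 91.7% to 100% of the counts of each of the 7 genes fell in a single region. In single libraries the share could be far lower, with 12 of the 40 AHRR counts of HepG2 HME 2 and 4 of the 13 TIPARP counts of HepG2 control 2 in that region. For CYP1A1 this was chr15:75011686-75012829 on GRCh37, of which 947 of 1144 bases lie in the 3′ untranslated part of the last exon. For AHR it was chr7:17382689-17385973 and for TIPARP chr3:156422910-156424756. Of these, 3083 of 3285 and 1642 of 1847 bases lie in the 3′ untranslated part of the last exon. Both regions run past the annotated end of the transcript. The CYP1B1 region, chr2:38294455-38297864, overlaps RMDN2 on the other strand, so reads of that gene could not be told apart from CYP1B1 if strand was not used in counting. Levels are given as normalized CPM, counts scaled to a common library size, on 1 scale for all 12 libraries, and a count of 3 in a library, taken as the floor of detection, corresponded to between 0.768 and 1.87 CPM.

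The libraries held between 1790841 and 3656662 counts. HepG2 control 2 and Ls174 control 1 stood apart from the other controls of their line in their profile over the 500 most variable genes. HepG2 control 2 lay at distances of 43.3 and 44.2 from controls 1 and 3, which lay 24.4 apart. HepG2 HME 2 also lay away from its group, at 39.2 and 37.3 from HME 1 and HME 3, which lay 23.0 apart. All 10 hepatocyte genes checked (ALB, AFP and others) were counted in every HepG2 library, with a summed level of 20340 to 24535 CPM in the controls and 16422 to 18488 CPM under HME. The 10 intestinal genes checked summed to 830 to 1029 CPM in Ls174 controls and to 706 to 753 CPM under HME, against 125 to 399 CPM in the HepG2 libraries. EPCAM, VIL1, CDX1, CDX2, LGALS4 and TFF3 were counted in every Ls174 library, CEACAM5 in all but Ls174 control 1, KRT20 had at most 1 count and MUC2 at most 7. VIL1 was higher in untreated HepG2 than in untreated Ls174, by a log2 difference of 1.14 (edgeR adjusted p = 0.128), and so did not mark the colon line. Of the markers of other cells, 5 fibroblast genes summed to 961 CPM in HepG2 HME 2 and to at most 10.2 CPM in the other 11 libraries. COL1A1 had 1560 of the 2718 counts there, and LUM and DCN were at 0. Blood genes other than LYZ, which HepG2 expresses, and endothelial genes were at or near 0. The small hepatocyte signal in 2 Ls174 libraries is given beside CYP1A1 below.

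The first question was whether HME moved AHR signalling in HepG2. CYP1A1, TIPARP and AHR itself were higher in all 3 HME libraries than in any control, and AHRR and ARNT were not separated from the controls. CYP1A1 rose 7.14-fold, TIPARP 6.30-fold and AHR 2.56-fold. Genes were called changed at an edgeR p under 0.05 with a log2 fold change beyond 0.58, which called 3 of the 5 genes with enough counts to be tested, all higher, against 11.3% of 11343 genes called higher and 10.9% called lower. At an adjusted p under 0.05, 2 of the 5 remained, against 2.77% of all genes called higher. A separation in which every HME library lay above every control was found for 15.5% of all genes. The 7 genes were chosen with earlier results of these data known. Their shares, here and below, therefore cannot be weighed against those of all genes.

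**Figure D2:**
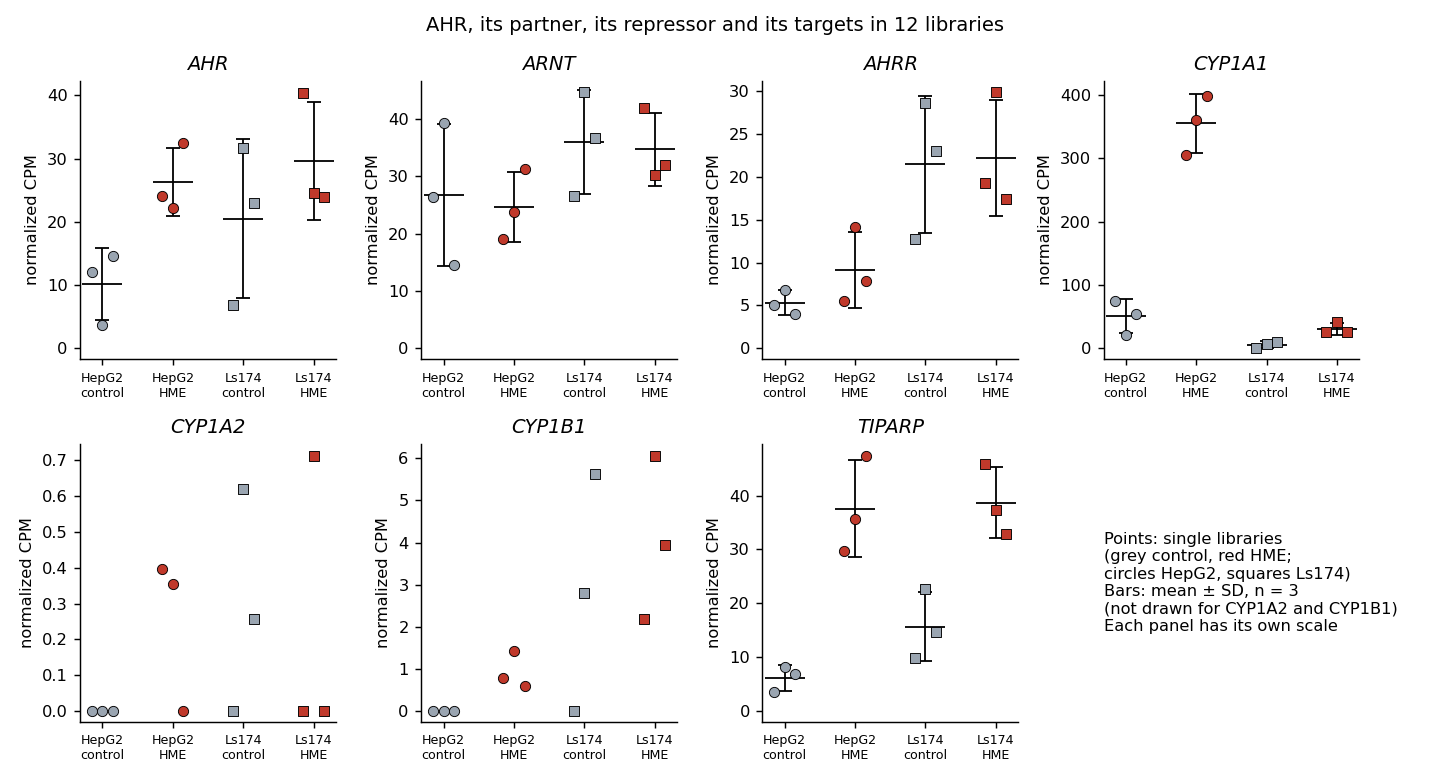
Normalized CPM of the 7 genes in each library, with the mean and SD of each group of 3 as bars, except for CYP1A2 and CYP1B1, where single libraries are shown alone. Each panel has its own linear y axis. The HME libraries lie above the controls for CYP1A1 and TIPARP in both lines, and for AHR in HepG2.

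Among the targets, CYP1A1 is the P450 that oxidises polycyclic aromatic hydrocarbons and serves as the standard readout of AHR. In HepG2 it was at 74.8, 21.8 and 55.0 CPM in the control libraries and at 306, 361 and 399 CPM under HME. The lowest HME library was thus more than 4-fold above the highest control. The mean was 50.5 ± 26.8 CPM in controls and 355 ± 47.0 CPM under HME (SD, n = 3). The log2 fold change was 2.84 (SE 0.44, 95% interval 1.86 to 3.81), with an adjusted p of 0.00925 in edgeR's quasi-likelihood test with Benjamini-Hochberg adjustment.

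TIPARP is an enzyme that adds ADP-ribose to AHR and lowers its activity, and it is itself an AHR target. Its level in HepG2 was 3.50, 8.10 and 6.87 CPM in controls and 29.7, 35.7 and 47.4 CPM under HME. All HME libraries stood well above all controls, with counts of 13 to 17 in the controls and 75 to 101 under HME. The log2 fold change was 2.66 (SE 0.43, interval 1.70 to 3.61), at an edgeR adjusted p of 0.0113. Left out 1 at a time, no library took CYP1A1 or TIPARP past an unadjusted p of 0.05, but without HepG2 HME 3 the edgeR adjusted p was 0.0549 for CYP1A1 and 0.0655 for TIPARP. Without HepG2 HME 2, the library with the fibroblast counts, the log2 fold changes were 2.84 for CYP1A1 and 2.70 for TIPARP.

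CYP1A2 is the P450 of mature hepatocytes that metabolises caffeine, and it lies beside CYP1A1 on chromosome 15, transcribed in the opposite direction. In HepG2 it had 0, 0 and 0 counts in controls and 1, 1 and 0 counts under HME. It was at or below the floor of 3 counts in every HepG2 library and was not testable. CYP1B1, which oxidises estradiol and hydrocarbons outside the liver, had 0, 0 and 0 counts in controls and 2, 4 and 1 counts under HME. A single library passed the floor, so CYP1B1 was not tested in HepG2, and no fold is given.

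AHR itself, the receptor, was at 12.1, 3.74 and 14.5 CPM in HepG2 controls and at 24.1, 22.3 and 32.4 CPM under HME. The groups did not overlap, and the lowest control was HepG2 control 2, which had 6 counts of AHR and stood apart in its profile. The mean was 10.1 ± 5.67 CPM in controls and 26.3 ± 5.41 CPM under HME. The log2 fold change of 1.36 (SE 0.44, interval 0.36 to 2.35) passed the unadjusted threshold and not the adjusted one (edgeR adjusted p = 0.120). Without HepG2 control 2 it was 1.04, with an edgeR adjusted p of 0.0700, and over all libraries left out in turn the adjusted p ran from 0.0700 to 0.340.

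ARNT, the partner that AHR needs to bind DNA and that also serves the hypoxia factors, was at 26.4, 39.2 and 14.5 CPM in HepG2 controls and at 19.0, 23.7 and 31.2 CPM under HME. The groups overlapped fully, and the log2 difference was -0.12 (SE 0.43, interval -1.07 to 0.84; edgeR adjusted p = 0.894). AHRR, which competes with AHR for ARNT and is induced by AHR in many cells, was at 5.11, 6.85 and 4.04 CPM in controls and at 5.54, 14.1 and 7.81 CPM under HME. Only HepG2 HME 2 stood clearly above the controls, and the log2 difference of 0.82 (SE 0.50, interval -0.30 to 1.94) did not pass the test (edgeR adjusted p = 0.359). Of the 40 AHRR counts of that library, 28 came from an internal region, chr5:368099-368304, which had 0 counts in every HepG2 control. In the main 3′ region AHRR had 19, 11 and 10 counts in controls and 13, 12 and 13 under HME, and the log2 difference over that region alone, an alternative chosen after seeing the data, was 0.11 (edgeR adjusted p = 0.917). Without HepG2 HME 2 and with all regions it was 0.35.

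**Figure D3:**
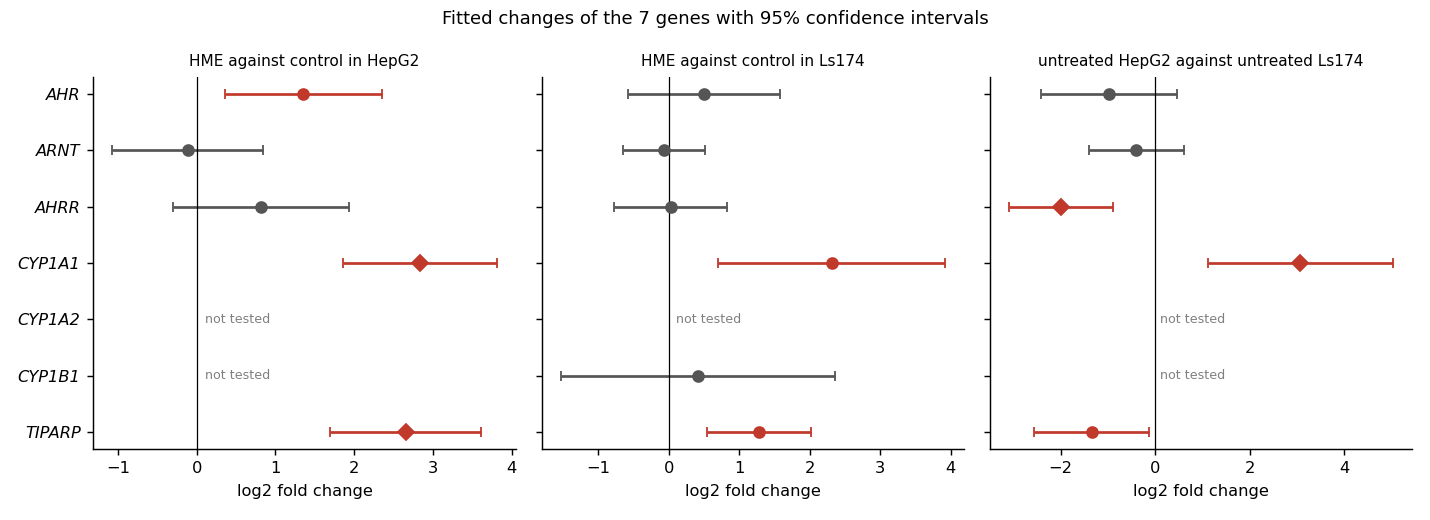
Log2 fold changes of the 7 genes on the x axis, with 95% confidence intervals, for HME against control in HepG2, HME against control in Ls174, and untreated HepG2 against untreated Ls174 (3 libraries a group). Red marks an edgeR p under 0.05 with a change beyond 0.58, and diamonds mark an adjusted p under 0.05. CYP1A1 reaches 2.84 in HepG2 and 2.31 in Ls174 under HME, and ARNT lies near 0.

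The same question was asked of Ls174. CYP1A1 and TIPARP were again higher in all 3 HME libraries than in any control, 4.96-fold and 2.43-fold, while AHR, ARNT, AHRR and CYP1B1 overlapped between the groups. These 2 of 6 tested genes were called higher at the unadjusted threshold, against 4.11% of 11319 genes called higher and 7.85% called lower. At the adjusted threshold 0 of the 6 were called by edgeR, against 0.318% of all genes called higher. With every HME library above every control stood 11.6% of all genes. The summed intestinal genes were lower under HME in this line without overlap, and EPCAM alone held 441 to 596 CPM of the sum in controls. EPCAM and CDX1 were called lower, at log2 fold changes of -0.64 and -0.73. The others tested were not called, with CDX2 at -0.73, VIL1 at -0.09, CEACAM5 at 0.21 and LGALS4 at 0.56. TFF3, at 0.33, was higher in every HME library than in any control. The part of the intestinal genes in the changes below was not tested.

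CYP1A1 in Ls174 was at 0, 6.52 and 10.8 CPM in controls and at 25.9, 41.6 and 25.3 CPM under HME. The controls rested on 0, 21 and 42 counts and the HME libraries on 71, 117 and 77, so every HME library was more than 2-fold above the highest control. The log2 fold change was 2.31 (SE 0.70, interval 0.70 to 3.92), past the unadjusted threshold but with an adjusted p of 0.210 in edgeR. Without Ls174 control 1, the library with 0 counts that stood apart, it was 1.82 with an edgeR adjusted p of 0.00111. Without Ls174 control 3 it rose to 3.07, and without Ls174 HME 2 it was 2.07 and the unadjusted call was lost. Over the 6 fits that each left out 1 library, the edgeR adjusted p ran from 0.00111 to 0.686.

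A small hepatocyte signal was present in 2 of the Ls174 libraries. Of the 10 hepatocyte genes, 9 that exclude HNF4A, which intestinal cells also express, summed to 137 CPM in Ls174 control 3 and 69.2 CPM in Ls174 HME 1, and to at most 10.8 CPM in the other 4. These sums equal 0.796% and 0.402% of the mean of the same 9 genes in the HepG2 HME libraries. Such shares of those libraries would hold 2.83 CPM of CYP1A1 in control 3 and 1.43 CPM in HME 1, where 10.8 and 25.9 CPM were measured. These values assume a signal with the make-up of HepG2 HME RNA. AFP had 2 counts beside 45 of ALB in Ls174 HME 1 and 129 beside 176 in Ls174 control 3, against 6332 and 13025 in HepG2 HME 1. The source of the signal, and its part in CYP1A1, was not tested. With both libraries left out, an alternative chosen after seeing the data, the CYP1A1 log2 fold change was 3.20 and kept its unadjusted call (edgeR adjusted p = 0.512), and that of TIPARP was 1.08 and lost it (adjusted p = 0.558).

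TIPARP in Ls174 was at 9.84, 22.7 and 14.6 CPM in controls and at 45.9, 37.3 and 32.9 CPM under HME. The highest control and the lowest HME library were 22.7 and 32.9 CPM, a clear but narrower gap than in HepG2. The log2 fold change was 1.28 (SE 0.32, interval 0.55 to 2.01), past the unadjusted threshold but with an adjusted p of 0.124 in edgeR. The unadjusted call held with each of the 6 libraries left out in turn, and without Ls174 control 1 the edgeR adjusted p was 0.0105.

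CYP1B1 had enough counts to be tested only in Ls174, where it had 0, 9 and 22 counts in controls and 6, 17 and 12 under HME. These correspond to 2.81 ± 2.82 CPM and 4.06 ± 1.93 CPM (SD, n = 3), and the groups overlapped. The log2 difference was 0.42 (SE 0.85), with an interval from -1.53 to 2.36 that includes changes of more than 2-fold in both directions. CYP1A2 had 0, 2 and 1 counts in controls and 0, 2 and 0 under HME, at or below the floor in every library.

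AHR in Ls174 was at 6.88, 31.7 and 23.0 CPM in controls and at 40.4, 24.5 and 24.0 CPM under HME. Only Ls174 control 1 lay well below the rest, with 14 counts, and the other controls lay within or beside the HME libraries. The log2 difference was 0.50 (SE 0.47, interval -0.57 to 1.58; edgeR adjusted p = 0.668), and it was 0.13 without that library. ARNT was at 26.6, 44.7 and 36.6 CPM in controls and 41.9, 30.2 and 31.9 CPM under HME, a log2 difference of -0.06 (SE 0.26). AHRR was at 12.8, 28.6 and 23.0 CPM in controls and 19.3, 29.9 and 17.4 CPM under HME, a log2 difference of 0.03 (SE 0.35). For both genes the ranges of the groups lay over each other, and their edgeR adjusted p-values were 0.931 and 0.975.

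**Figure D4:**
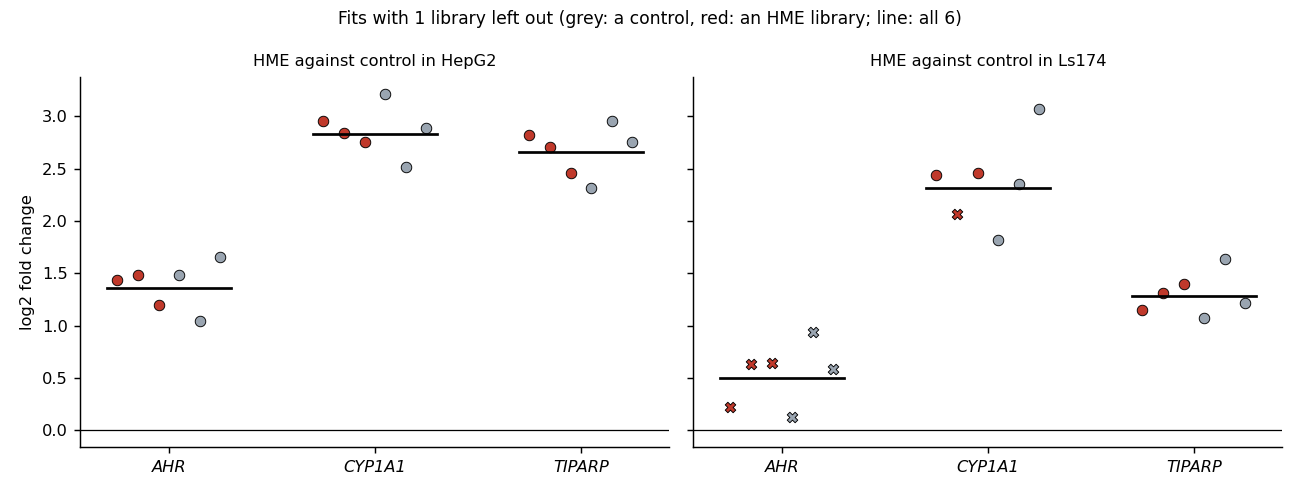
Log2 fold change of AHR, CYP1A1 and TIPARP (y axis) under HME in HepG2 and Ls174 with each library left out in turn. Grey points leave out a control, red points an HME library, and the line is the fit of all 6. Crosses mark fits with an edgeR p of 0.05 or more or a change within 0.58. CYP1A1 in Ls174 runs from 1.82 to 3.07.

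Whether the lines differed in their response was tested as the interaction of cell line and HME over all 12 libraries. TIPARP rose more in HepG2 than in Ls174, by 1.37 on the log2 scale (SE 0.54, interval 0.22 to 2.52), past the unadjusted threshold but with an edgeR adjusted p of 0.286. The call was lost in 4 of the 12 fits that left out 1 library, those without HepG2 control 1, HepG2 HME 3, Ls174 control 2 or Ls174 HME 3, where the difference lay between 0.98 and 1.26. TIPARP was the only 1 of the 6 fitted genes called, against 13.2% of 13040 genes called in either direction, and 0 were called at the adjusted threshold, against 0.644% of all genes. For CYP1A1 the difference between the lines was 0.48 with an interval from -1.37 to 2.33, which does not show that the lines responded alike. For AHR it was 0.81 (interval -0.70 to 2.32), for AHRR 0.78 (interval -0.52 to 2.09) and for ARNT -0.05 (interval -1.14 to 1.04). No interaction is given for CYP1B1, which was at 0 in all HepG2 controls.

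CYP1A1, AHRR and TIPARP also differed between the untreated lines at the unadjusted threshold, and AHR and ARNT did not. Untreated HepG2 held 8.42 times as much CYP1A1 RNA as untreated Ls174, and less AHRR, by 3.97-fold, and less TIPARP, by 2.54-fold. Of the 5 genes tested, 1 was called higher in HepG2 and 2 lower, against 19.5% and 15.4% of 11907 genes. At an adjusted p under 0.05, CYP1A1 and AHRR were called, against 23.5% of all genes in either direction, so a share of this size was common between these lines. The control libraries are the same ones used in the comparisons with HME, so a low resting level and a larger rise of the same gene rest in part on the same 3 values.

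The CYP1A1 controls given above, 21.8 to 74.8 CPM in HepG2 and 0 to 10.8 CPM in Ls174, did not overlap. The log2 difference was 3.07 (SE 0.87, interval 1.11 to 5.04; edgeR adjusted p = 0.0313). With 1 library left out it ran from 2.56 to 3.87, the latter without Ls174 control 3. The unadjusted call always held, but the edgeR adjusted p reached 0.102. AHRR, at 4.04 to 6.85 CPM in HepG2 and 12.8 to 28.6 CPM in Ls174, was also separated in all libraries. Its log2 difference was -1.99 (SE 0.49, interval -3.09 to -0.89; edgeR adjusted p = 0.0162). With 1 library left out it ran from -2.26 to -1.71 and kept its unadjusted call, but the edgeR adjusted p reached 0.0935. TIPARP was at 3.50 to 8.10 CPM in HepG2 and 9.84 to 22.7 CPM in Ls174, with a log2 difference of -1.35 (SE 0.53) past the unadjusted threshold but with an edgeR adjusted p of 0.106. That call was lost when HepG2 control 1 or 3 or Ls174 control 2 or 3 was left out, with differences between -0.96 and -1.43. Over the main 3′ region alone the TIPARP difference was -1.88, with an edgeR adjusted p of 0.0419, within a range of 0.00368 to 0.40 over all alternatives run. AHR and ARNT overlapped between the lines, at log2 differences of -0.98 (SE 0.63) and -0.40 (SE 0.44). With both controls that stood apart left out, an alternative chosen after seeing the data, all 5 genes were called. Calls were also more common over all genes in that fit, with 6357 of 12790 called against 4162 of 11907 in the main fit. AHR was then lower in HepG2 by a log2 difference of -1.02 and ARNT by -0.94.

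Set in order, the mean level of CYP1A1 ran from 5.76 ± 5.42 CPM in untreated Ls174 through 30.9 ± 9.25 CPM in Ls174 with HME and 50.5 ± 26.8 CPM in untreated HepG2 to 355 ± 47.0 CPM in HepG2 with HME. The libraries of Ls174 with HME, at 25.3 to 41.6 CPM, lay inside the range of untreated HepG2, whereas the other neighbours in this order did not overlap. TIPARP ran from 6.15 ± 2.38 CPM in untreated HepG2 through 15.7 ± 6.48 CPM in untreated Ls174 to 37.6 ± 9.04 CPM in HepG2 and 38.7 ± 6.63 CPM in Ls174 with HME. The treated groups of the lines overlapped for TIPARP. AHR likewise reached 26.3 ± 5.41 CPM in HepG2 and 29.7 ± 9.35 CPM in Ls174 with HME, and these ranges overlapped too.

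A list of 42 further genes of the pathway was read in the same fits, grouped by role. It too was chosen with earlier results of these data known, so the same limit holds for its shares and medians. In HepG2, 29 had enough counts, 10 were called higher and 2 lower, where 11.3% and 10.9% of all genes tested were, with a median log2 fold change of 0.48 against -0.04 over all genes tested. In Ls174, 26 were tested, 5 were called higher and 2 lower, where 4.11% and 7.85% of all genes were, with a median of -0.09 against -0.00287 over all genes. At an adjusted p under 0.05, edgeR called 3 in HepG2 (GSTA1, STC2 and HMOX1) and 1 in Ls174 (ALDH3A1).

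**Figure D5:**
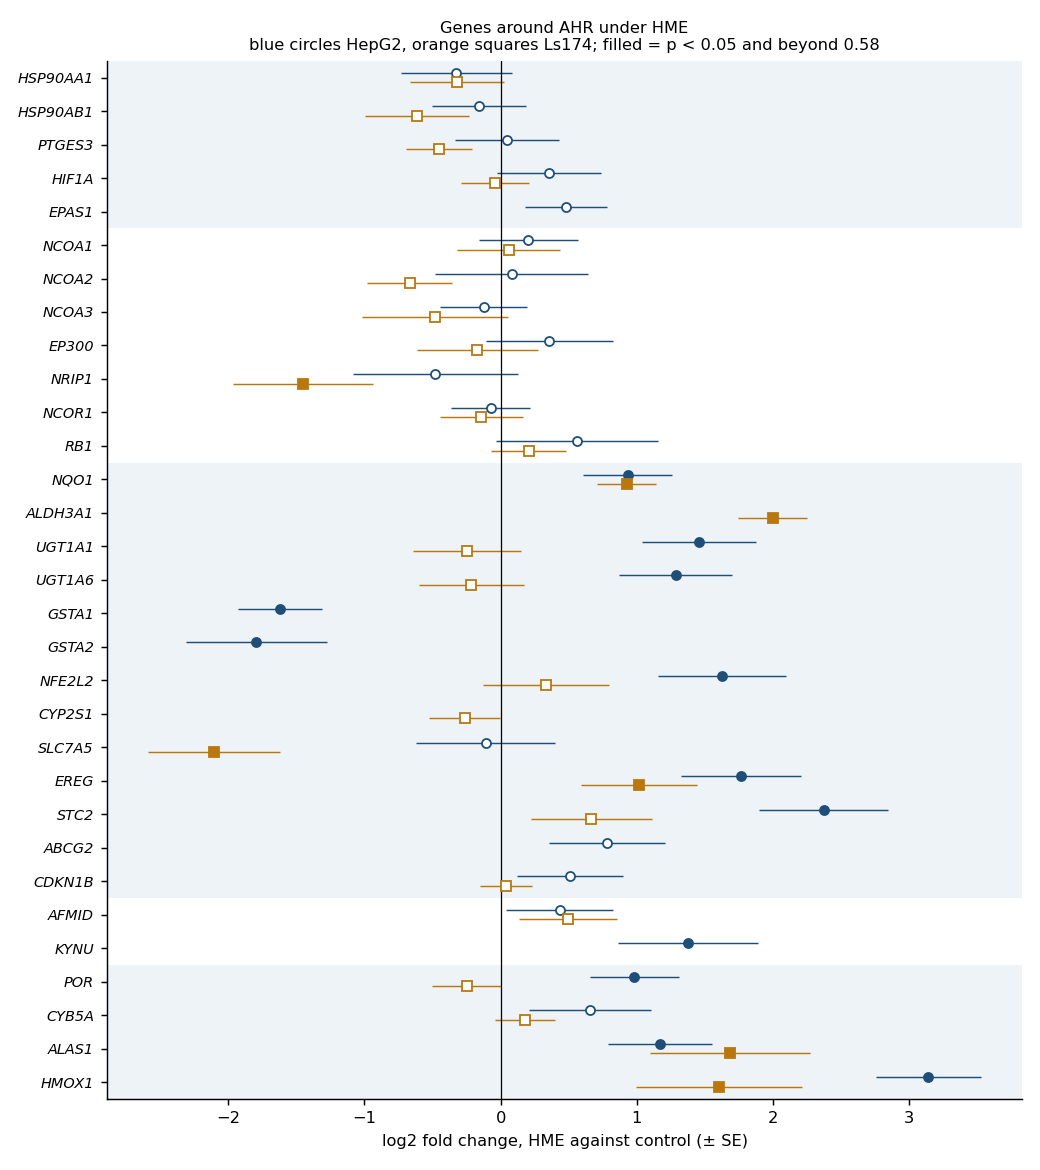
Log2 fold change (± SE, x axis) under HME of the pathway genes tested in at least 1 line, with HepG2 as blue circles and Ls174 as orange squares. Bands group the genes by role, from the cytosolic complex at the top to P450 support at the bottom. Filled symbols passed an edgeR p under 0.05 with a change beyond 0.58. Most filled symbols of the target genes lie to the right of 0, and GSTA1, GSTA2 and SLC7A5 lie to the left.

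Of the cytosolic complex and the dimer partners, 0 of 5 genes tested passed in HepG2 and 0 of 4 in Ls174 at the unadjusted edgeR threshold. HSP90AA1 and HSP90AB1, the heat shock proteins that hold AHR, stood at log2 differences of -0.32 (SE 0.41) and -0.16 (SE 0.35) in HepG2. Of 7 coactivators, corepressors and modifiers of AHR, 0 passed in HepG2 and 1 fell in Ls174. This was NRIP1, which binds AHR and nuclear receptors, at a log2 fold change of -1.45 (SE 0.51; edgeR adjusted p = 0.275). NRIP1 rested on 5 to 20 counts a library and lost its call in 4 of the 6 fits that left out 1 library.

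Of 18 further target genes, 6 of 11 tested rose in HepG2 and 2 fell, and 3 of 10 tested rose in Ls174 and 1 fell. The shares over all genes were 11.3% higher and 10.9% lower in HepG2 and 4.11% and 7.85% in Ls174, and UGT1A1 and UGT1A6, both among the HepG2 rises, are 1 observation. NQO1, a quinone reductase driven both by AHR and by the oxidative stress factor NRF2, rose in both lines, by a log2 fold change of 0.93 in each (SE 0.33 in HepG2 and 0.22 in Ls174; edgeR adjusted p = 0.141 and 0.103). In Ls174 it was at 549, 419 and 406 CPM in controls and at 1001, 835 and 793 CPM under HME, without overlap. In HepG2 the call was lost without control 1 or HME 1. NFE2L2, which encodes NRF2, rose in HepG2 by 1.63 (SE 0.47; edgeR adjusted p = 0.0908, and at most 0.249 with 1 library left out). The rise was 2.33 without HepG2 control 1 and 1.30 without HepG2 control 2. In Ls174 NFE2L2 stood at 0.33 and did not pass.

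ALDH3A1, an aldehyde dehydrogenase that dioxin induces in liver cells, was the target called at the adjusted threshold in Ls174. It was at 9.34, 15.2 and 15.9 CPM in controls and at 49.6, 58.3 and 56.8 CPM under HME. Every HME library was more than 3-fold above every control, and the log2 fold change was 2.00 (SE 0.26; edgeR adjusted p = 0.0249, and at most 0.258 with 1 library left out). In HepG2 it held 2 to 12 counts a library, 3.23, 1.25 and 2.83 CPM in controls and 3.96, 3.18 and 3.60 CPM under HME, too few for the test. The ranges there overlapped.

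UGT1A1 and UGT1A6, which conjugate bilirubin and phenols, rose in HepG2 by 1.46 (SE 0.42) and 1.29 (SE 0.42) on the log2 scale (edgeR adjusted p = 0.0903 and 0.116). They share their last exons, so the 3′ counts cannot be assigned to either, and the UGT1A6 call was lost without HepG2 HME 3. In HepG2 UGT1A1 was at 9.14, 8.72 and 8.08 CPM in controls and 12.7, 25.1 and 33.6 CPM under HME, and in Ls174, where it was at 1032 to 2104 CPM in controls and 914 to 2294 CPM under HME, the groups overlapped. EREG, a growth factor of the EGF family, rose in HepG2 by 1.76 (SE 0.44) and in Ls174 by 1.02 (SE 0.42; edgeR adjusted p = 0.0602 and 0.352), and the Ls174 call was lost in 4 of 6 fits that left out 1 library. STC2, a secreted glycoprotein that endoplasmic reticulum stress also induces, rose in HepG2 by 2.37 (SE 0.47; edgeR adjusted p = 0.0271, and at most 0.102 with 1 library left out).

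The targets that fell were 2 glutathione transferases and an amino acid transporter. GSTA1 was at 123, 80.4 and 106 CPM in HepG2 controls and at 33.2, 38.2 and 27.6 CPM under HME, all below the lowest control. Its log2 fold change was -1.62 (SE 0.31; edgeR adjusted p = 0.0216, and at most 0.143 with 1 library left out), and that of GSTA2, a near-identical copy that may share its reads, was -1.79 (SE 0.52; edgeR adjusted p = 0.0903). The summed hepatocyte genes were also lower under HME in HepG2 (16422 to 18488 CPM against 20340 to 24535 CPM). Of these genes, only APOA1 and APOB were called lower, at log2 fold changes of -1.22 and -1.37. APOA2 and FGB stood at 0.21 and 0.16, ALB at -0.18, and the rest lay below 0 and were not called. The part of the hepatocyte genes in the fall of GSTA1 was not tested. SLC7A5, which carries tryptophan and kynurenine into cells, was at 1170, 349 and 377 CPM in Ls174 controls and at 189, 127 and 129 CPM under HME. Its log2 fold change there was -2.10 (SE 0.48; edgeR adjusted p = 0.0980), and -1.28 without Ls174 control 1, while in HepG2 it was at -0.11 (SE 0.51) and did not pass.

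Kynurenine, made from tryptophan, is an AHR ligand of the body itself. Of 7 enzymes of tryptophan and kynurenine metabolism, most were at or near the floor, with 2 tested in HepG2 and 1 in Ls174. AFMID was tested in both lines and not called, at log2 differences of 0.43 (SE 0.39) in HepG2 and 0.50 (SE 0.36) in Ls174. TDO2, the liver enzyme of the first step, had 0 counts in all 12 libraries, and IDO1 had at most 4. KYNU, which breaks kynurenine down, rose in HepG2 by 1.38 (SE 0.52; edgeR adjusted p = 0.164, and no longer called without HepG2 HME 3) and had 0 counts in every Ls174 library. Of 4 genes that supply P450 enzymes with electrons or heme, 3 rose in HepG2 and 2 in Ls174, where 11.3% and 4.11% of all genes rose. POR, the reductase that passes electrons to CYP1A1, was at 143, 169 and 114 CPM in HepG2 controls and 228, 279 and 333 CPM under HME, a log2 fold change of 0.98 (SE 0.33; edgeR adjusted p = 0.124) that lost its call without HepG2 control 3 or HME 3. In Ls174 POR was at 32.9 to 55.6 CPM in controls and 32.1 to 37.3 CPM under HME.

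ALAS1, the first enzyme of heme synthesis, rose in both lines, by 1.17 (SE 0.38) in HepG2 and by 1.68 (SE 0.59) in Ls174 (edgeR adjusted p = 0.121 and 0.271). HMOX1, which breaks heme down and is a main target of NRF2, was at 101, 58.6 and 86.9 CPM in HepG2 controls and at 458, 830 and 859 CPM under HME. It rose by 3.14 on the log2 scale (SE 0.39; edgeR adjusted p = 0.00288, and at most 0.0226 with 1 library left out), and in Ls174 by 1.60 (SE 0.61; edgeR adjusted p = 0.308) at 1 to 34 counts a library. The Ls174 calls of ALAS1 and HMOX1 were each lost when any 1 of the HME libraries was left out.

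Last, the genes whose pattern was most like that of each member were sought over the 12 libraries, after the mean of each line was removed. Among 13040 genes, those closest to CYP1A1 were EIF1 (r = 0.984), the small RNA gene SCARNA9 (r = 0.977) and NFKBIA (r = 0.968), and those closest to TIPARP were EMP1 (r = 0.962), CARS (r = 0.956) and NR4A2 (r = 0.942). AHR was closest to SBDSP1 (r = 0.979), GLUL (r = 0.973) and SEC11A (r = 0.969). ARNT was closest to RAD54L2 (r = 0.943), ORAI2 (r = 0.930) and NCL (r = 0.900). AHRR was closest to NFATC3 (r = 0.886), ADAMTS15 (r = 0.885) and GCKR (r = 0.848), and CYP1B1 to GADD45G (r = 0.925), KLK6 (r = 0.919) and TWISTNB (r = 0.911). ADAMTS15, GADD45G, KLK6 and NR4A2 had too few counts to be tested in HepG2, as had CYP1B1 itself, and EMP1, GCKR and ORAI2 in Ls174. Their correlations rest in part on low counts. Within the pathway, AHR and CYP1A1 had r = 0.863, CYP1A1 and TIPARP r = 0.800, and AHR and ARNT r = -0.021. These correlations describe 12 libraries that share the contrast of HME with control and the libraries that stood apart, and they are given without a test.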

How the data were processed

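RNA of HepG2 and Ls174 cells was read with 3′ end libraries (QuantSeq, Ion Proton). Per the study's methods and the labels, the authors aligned reads with HISAT2 to hg19 (GRCh37), and metaseqR2 gave the counts of each 3′ region; the labels also name Bowtie2 and Trimmomatic, and whether counting used strand is not given in the sources used here. The deposited values are raw counts per region in 12 libraries, which were summed by gene.

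Each comparison was fitted across all genes with edgeR 4.0.16 in R 4.3.3 (filterByExpr, TMM, glmQLFit, glmQLFTest, Benjamini-Hochberg over all genes tested). A call needed a log2 fold change beyond 0.58 and an unadjusted p below 0.05, the thresholds of the study, and calls at an adjusted p under 0.05 are given beside it. HME was compared with control within each line, untreated HepG2 with untreated Ls174, and the responses by an interaction over all 12 libraries. SE is the log2 fold change divided by the square root of F. The fits were tested on simulated data. Alternatives were DESeq2 1.42.0, a binomial test on summed counts (the test family of the study), other scalings, no filter, a replicate block, 1 fit of all 12 libraries, and each library left out, and, added after seeing the data, the largest 3′ region of each member only and fits without libraries that stood apart or held hepatocyte counts. Between 1790841 and 3656662 counts per library limit the precision for low genes, and the floor was 3 counts per library. All members are named, with pathway genes that passed either threshold in a line and the 3 genes most like each member. Of the pathway lists, 2 genes are not reported here. The members and lists were chosen with earlier results of these data known. The concentration of HME is that of the labels, and the study's methods state a slightly higher one. Promoters are from the RefSeq table (GRCh38.p14), where CYP1B1 has no entry, and upstream windows from GRCh37 with GENCODE v44lift37. Upstream matches were listed only for members with a RefSeq entry, so CYP1B1 is left out there too.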

Additional observations from a re-analysis of the deposited data

Results flagged for a closer look

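The response to HME differed between HepG2 and Ls174 at an unadjusted edgeR p under 0.05 for TIPARP and for 8 genes of the pathway list. At an adjusted p under 0.05 it differed for 0 of them. Of all 13040 genes tested, 13.2% were called at the unadjusted threshold with a log2 difference beyond 0.58, and 0.644% at the adjusted one. One of the 8, EPAS1 (adjusted p = 0.180), had at most 3 counts in every Ls174 HME library, so the size of its difference depends on the floor and is not given. For TIPARP and the other 7 the adjusted p ran from 0.197 to 0.319. In log2 differences, HepG2 minus Ls174, TIPARP stood at 1.37, POR at 1.23, SLC7A5 at 1.98, STC2 at 1.67 and HMOX1 at 1.54. UGT1A1 stood at 1.69 and UGT1A6 at 1.49, which share their 3′ counts and are 1 observation. ALDH3A1 stood at -1.55 and was the only one of them with the larger rise in Ls174, resting in HepG2 on 2 to 12 counts a library. All share the control libraries of both lines, and HMOX1 had 1 to 34 counts in Ls174. No cause was tested.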

How the results depend on the processing

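In HepG2, AHR, CYP1A1 and TIPARP kept their direction and their unadjusted call under all 14 alternatives run, with log2 fold changes of 1.04 to 1.66, 2.52 to 3.22 and 2.32 to 3.04. At an adjusted p under 0.05, calls fell from 12 to 3 pathway genes in HepG2, from 2 members to 0 and from 7 pathway genes to 1 in Ls174, and from 1 member to 0 for the interaction. Leaving out each library gave 1 to 2 members and 3 to 8 pathway genes called in Ls174 (3 without HME 1, without HME 2 or without HME 3). Over all genes those fits called from 838 of 11720 to 1824 of 11673. For the interaction they gave 0 to 2 members, where from 1341 of 13570 to 2161 of 13482 genes were called. With no filter on low counts the interaction called 2 members, where 2380 of 27326 genes were called. Without both controls that stood apart it called 3, where 2521 of 13327 genes were called. Untreated lines then differed at 5 members instead of 3, where 6357 of 12790 genes were called instead of 4162 of 11907. Without the Ls174 libraries with hepatocyte counts, 1 member and 3 pathway genes were called, where 1017 of 11424 genes were. Values near 0 changed sign. ARNT reached 0.31 in HepG2 (-0.42 to 0.31 with a library left out), 0.12 in Ls174 (-0.22 to 0.12), and 0.29 for the interaction (-0.34 to 0.29), where it was 0.44 without both controls that stood apart. AHRR in Ls174 was -0.028 under library size scaling and in the binomial test -0.042, and it was -0.043 in its main 3′ region alone (-0.23 to 0.28 with a library left out). CYP1B1 in Ls174 ran from -0.068 to 1.36, and the CYP1A1 interaction from -0.28 to 0.97. The cause was not tested. Scaling by library size moved the median gene in HepG2 from -0.04 to -0.20 and lowered its higher calls from 1282 of 2517 to 861 of 2590.

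Replicate numbers were not taken as pairs in the main fits. Same-numbered libraries of control and HME correlated at -0.12 to 0.06 in HepG2 and -0.06 to 0.03 in Ls174. HepG2 control 3 and HME 1, with different numbers, reached 0.23. With 3 libraries a group, these values cannot decide whether libraries were paired. With a replicate block, 3 members and 12 pathway genes were called in HepG2, where 2071 of 11343 genes were. In Ls174, 2 members and 6 pathway genes were called, where 1133 of 11319 genes were. Between untreated lines 2 members were called, where 3217 of 11907 genes were. For the interaction 1 member was called, where 1342 of 13040 genes were. Over all genes adjusted calls in Ls174 fell from 134 to 0. Depth limits CYP1A2 and CYP1B1, whose counts are too few to show a change of moderate size.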
